A study of Homo sapiens with 4 samples.

Results

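The heat shock genes described here are 10 chaperone genes, taken by symbol from the 26506 genes listed for HeyC2 and SKOV3 cells. They are HSPA8, HSPA1A and HSPA1B of the HSP70 family, HSPH1 of the HSP110 family, the J protein gene DNAJB1, the HSP90 genes HSP90AA1 and HSP90AB1, the small heat shock protein gene HSPB1, and the chaperonin genes HSPD1 and HSPE1. All 10 were found in both tables and all 10 passed the filter on low values in both cell lines. The set was named for the cytosol, but the products of HSPD1 and HSPE1 (HSP60 and HSP10) work in the mitochondrial matrix, so values are also given without these genes.

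HeyC2 and SKOV3 are established human ovarian cancer cell lines. Cells of each line received either pCMV6/TET1, a plasmid that expresses the DNA demethylase TET1, or the empty plasmid, by lipofection, and both kinds of culture were then grown under Geneticin. The control cells therefore carried an empty plasmid and the drug selection as well, although the labels call them wild-type, and whether the selected cells were 1 clone or a mixed population is not given in the sources used here. Total RNA was sequenced as 1 library per condition, 4 libraries in all, so that no difference has a replicate check and no p-value was computed.

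Heat shock proteins bind unfolded or partly folded proteins and keep them from aggregating. HSP70 proteins work in an ATP-driven cycle, in which J proteins such as DNAJB1 deliver the client and HSP110 proteins such as HSPH1 help release the nucleotide, and clients such as kinases and steroid receptors are then passed to HSP90. The stress-inducible genes are switched on by the transcription factor HSF1, which binds heat shock elements, arrays of alternating 5-base units, in their promoters. Many tumours keep these genes highly expressed without any heat stress.

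The promoters of these genes are shown first, because the heat shock element is the feature through which the family is known to be induced together. RefSeq promoter sequences (table on GRCh38.p14) were found for all 10 genes, at 16 start sites, and each was placed at 1 exact position on GRCh37, the build of the deposited values. The window was the 250 bases before the start site. The sequences below run 5′ to 3′ on the strand of the gene, and capitals mark heat shock element units, GAANNTTC or TTCNNGAA, on either strand. The windows of HSPA1A (chr6:31783070-31783319, plus strand) and HSPA1B (chr6:31795265-31795514, plus strand) are printed whole because these neighbouring genes are near-copies, and that of HSPB1 (chr7:75931740-75931989, plus strand) because HSPB1 differed from the other members in SKOV3.
HSPA1A: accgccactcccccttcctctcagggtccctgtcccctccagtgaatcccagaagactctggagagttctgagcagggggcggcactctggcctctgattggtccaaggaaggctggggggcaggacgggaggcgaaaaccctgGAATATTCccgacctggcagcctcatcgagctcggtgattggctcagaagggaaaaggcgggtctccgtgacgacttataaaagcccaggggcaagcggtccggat
HSPA1B: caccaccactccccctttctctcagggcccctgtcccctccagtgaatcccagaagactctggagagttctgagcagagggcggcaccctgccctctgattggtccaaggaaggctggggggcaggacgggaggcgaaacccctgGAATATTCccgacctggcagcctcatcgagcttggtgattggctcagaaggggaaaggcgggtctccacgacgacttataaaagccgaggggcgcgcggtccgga
HSPB1: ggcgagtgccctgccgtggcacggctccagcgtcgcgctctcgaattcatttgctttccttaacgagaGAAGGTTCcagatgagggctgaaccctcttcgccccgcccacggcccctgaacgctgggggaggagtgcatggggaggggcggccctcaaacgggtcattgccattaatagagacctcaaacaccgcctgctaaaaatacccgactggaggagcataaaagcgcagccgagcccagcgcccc

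The HSPA1A and HSPA1B windows were identical at 235 of 251 aligned positions (93.6%). Each held 1 element of 2 units, at bases -106 to -99 in HSPA1A and -105 to -98 in HSPA1B, and each held a TATAAA box. Only exact letters were matched, so units with a mismatch were not counted in any window. The HSPB1 window held 1 element of 2 units, farther from the start site, at -182 to -175. Elements of at least 3 units, that is GAANNTTC or TTCNNGAA extended by 1 further unit in register, stood before 4 of the 10 genes, and are shown as short stretches. The HSPD1 stretch holds 2 overlapping matches, 4 alternating units in all. They lay at chr11:122932879-122932907 and chr11:122933054-122933082 (minus strand) before HSPA8, at chr14:102553449-102553477 (minus strand) before the shorter HSP90AA1 transcript unit, at chr6:44215507-44215535 and chr6:44215560-44215588 (plus strand) before HSP90AB1, and at chr2:198364786-198364814 (minus strand) before HSPD1. The last capital of the HSP90AA1 stretch belongs to the next element.
HSPA8, -55 to -43: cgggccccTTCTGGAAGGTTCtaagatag
HSPA8, -230 to -218: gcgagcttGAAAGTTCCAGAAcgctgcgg
HSP90AA1, -88 to -76: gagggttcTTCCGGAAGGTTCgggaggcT
HSP90AB1, -165 to -153: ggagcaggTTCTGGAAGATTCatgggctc
HSP90AB1, -112 to -100: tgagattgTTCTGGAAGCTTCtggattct
HSPD1, -245 to -228: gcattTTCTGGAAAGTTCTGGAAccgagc

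Among all 27305 genes of the promoter table, 0.557% had an element of at least 3 units in this window, against 4 of the 10 heat shock genes. Elements of 2 units stood before 14.0% of all genes and before 8 of the 10, the exceptions being HSPH1 and HSPE1. Counted by start site, elements of at least 3 units stood at 4 of 16, against 0.441% of all promoters. Those of 2 units stood at 8 of 16, against 11.6%. An element of 3 or more units also counts as one of 2 units. A CCAAT box on either strand was found in 5 of the 10 genes (37.0% of all genes), and TATAAA in HSPA1A and HSPA1B (8.38% of all genes). The windows of the 10 genes held a median of 18.5 CG dinucleotides, against 11 over all promoters. HSPD1 and HSPE1 lie head to head on chromosome 2, with RefSeq start sites 105 or 539 bases apart depending on the HSPD1 start. The window of the nearer HSPD1 start overlaps that of HSPE1. The HSPE1 window was counted from the RefSeq start at chr2:198365103, whereas the annotated HSPE1 gene begins at chr2:198364864. The HSPD1 stretch at chr2:198364786-198364814 lies before that annotated beginning and outside the HSPE1 window. A match to these letters is a description of the sequence and does not show that a factor was bound.

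**Figure D1:**
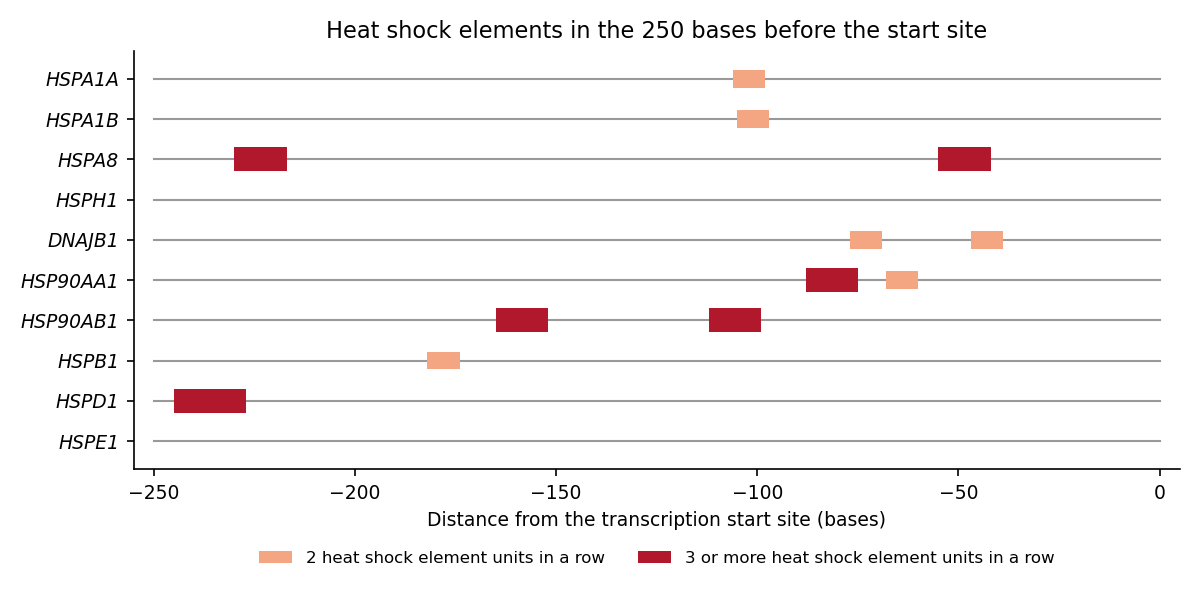
Positions of heat shock elements in the 250 bases before 1 start site of each gene (x axis, bases from the start site), with elements of 3 or more units in dark red and of 2 units in light orange. DNAJB1, HSP90AA1, HSP90AB1 and HSPD1 have more than 1 start site, and the start drawn is the one with elements. HSPA8, HSP90AA1, HSP90AB1 and HSPD1 carry elements of 3 or more units, and the HSPH1 and HSPE1 windows carry none of either kind. The HSPD1 element lies before the annotated beginning of the HSPE1 gene but outside the HSPE1 window drawn here.

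The deposited values were FPKM, fragments per kilobase of transcript and per 1000000 mapped fragments. GAPDH had the same FPKM in TET1 and control libraries, 5417.35 in HeyC2 and 2248.44 in SKOV3, and the spacing of the low values showed that each TET1 column had been multiplied by 1 factor, 3.23 in HeyC2 and 1.35 in SKOV3. As deposited, the median gene was thus 1.61 log2 units higher with TET1 in HeyC2 and 0.59 higher in SKOV3. Levels are therefore given as TPM (FPKM rescaled to 1000000 per library), which is per length and free of the factor, and changes as log2 of TET1 over control (FPKM, 1 added) minus the median of all genes of the line, called relative log2 change. Sequencing depth, estimated from the same spacing, was about 6400000 to 7290000 fragments per library, and 15162 to 16941 genes had a value above 0. The overexpressed gene itself was at 0.415 TPM in the HeyC2 control and 1.03 TPM with TET1, and at 0.909 and 3.95 TPM in SKOV3, which corresponds to about 14, 33, 28 and 109 fragments. In HeyC2 TET1 did not pass the filter on low values. Its relative log2 change was -0.45 there, opposite in direction to its TPM, and 0.67 in SKOV3, so this measure is unreliable for such low genes. Of 10 epithelial and ovarian cancer markers, KRT8, KRT18 and PAX8 were expressed in all 4 libraries, while WT1 was at 0 in 3 libraries and MUC16 was at 0 in both HeyC2 libraries and near 0 in SKOV3. CDH1 was also at 0 in both HeyC2 libraries, and EPCAM was at 0.19 TPM in the HeyC2 control and 0.75 TPM with TET1. MSLN was at 21.8 TPM in the SKOV3 control and 0.18 TPM with TET1.

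In 19 of the 20 pairs of gene and cell line, the TPM was lower with TET1 than in the control. In HeyC2 all 10 lay below the all-gene median, with a median relative log2 change of -0.32, although all 10 were higher in the values as deposited, scaled to GAPDH, and when genes at or near 0 were kept in the centring. In SKOV3, 9 of 10 lay below it, with a median of -1.03 (-0.45 as deposited), and HSPB1 lay above it. The all-gene median splits all genes evenly. Among genes with a mean of at least 50 FPKM, 37.25% lay below it in HeyC2 and 67.76% in SKOV3. The share of all genes with a lower TPM with TET1 was not counted. The 9 genes other than HSPB1 had a median of -0.33 in HeyC2 and -1.08 in SKOV3, and the 8 genes other than HSPD1 and HSPE1 had medians of -0.34 and -1.09. In bulk RNA of this kind, fewer cells expressing a gene and less of its RNA per cell cannot be told apart.

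At a threshold of 1.5-fold (0.585 on the log2 scale), 2 of the 10 genes were lower and 0 higher in HeyC2, where 12.9% of 12993 genes were lower and 13.0% higher. In SKOV3, 8 of the 10 were lower and 1 higher, where 17.9% of 13339 genes were lower and 20.6% higher. The heat shock genes are strongly expressed, and on this scale the shares called among strongly expressed genes differed from those among all genes. Among genes with a mean of at least 50 FPKM, which include all 10 heat shock genes in HeyC2, 4.17% of 3356 genes were lower and 17.0% higher. In SKOV3, 27.3% of 2159 such genes were lower and 8.85% higher, while 7 of the 9 heat shock genes at that level were lower and 1 higher. HSPH1 was below that level in SKOV3. The median relative log2 change of these strongly expressed genes was 0.13 in HeyC2 and -0.27 in SKOV3. The HeyC2 offset depends on the pseudocount of 1, which pulls the relative changes of low genes toward -1.61 in HeyC2. With a pseudocount of 0.1 the HeyC2 median of the 10 heat shock genes was -0.47 instead of -0.32, a shift of similar size. The mean used for the cut at 50 FPKM also included the scaled TET1 column.

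**Figure D2:**
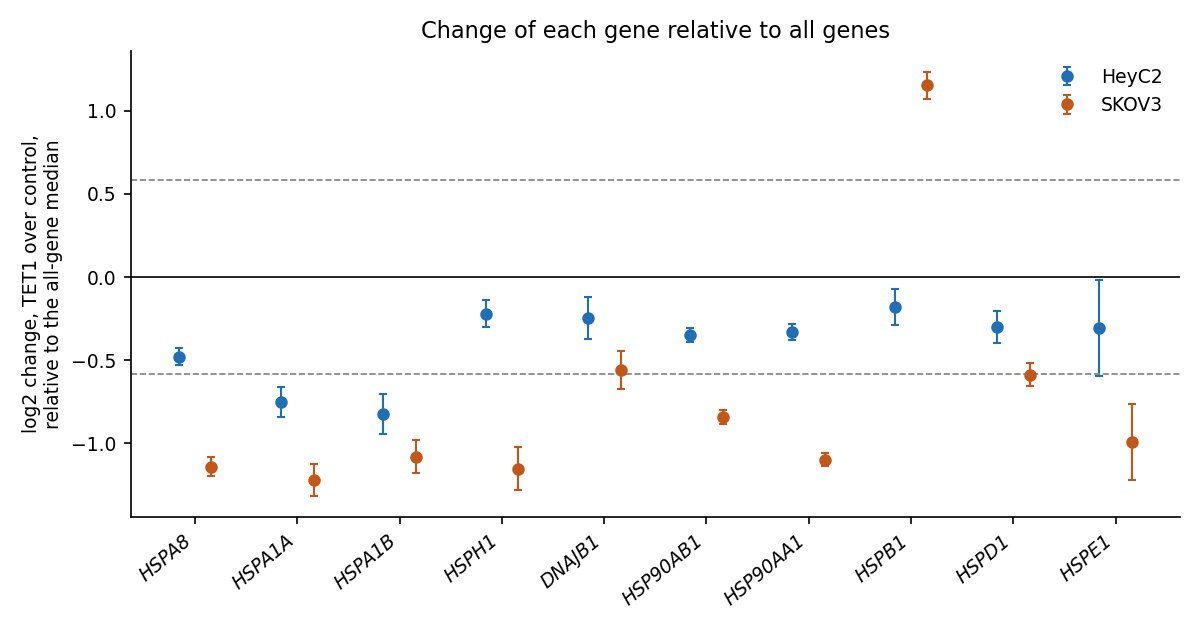
Relative log2 change (TET1 over control, minus the all-gene median of the line) of each gene in HeyC2 (blue) and SKOV3 (orange), with bars for the 95% counting interval from the estimated fragments. All 10 HeyC2 points lie between -0.82 and -0.18 and 9 SKOV3 points between -1.22 and -0.56, while HSPB1 in SKOV3 is at 1.15. As deposited, scaled to GAPDH, all HeyC2 points would be above 0, as would DNAJB1 and HSPD1 in SKOV3.

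HSPA8 (chr11:122928197-122933938, GRCh37) encodes HSC70, the HSP70 that is made in unstressed cells, and was the highest of the 3 HSP70 genes of the set in all 4 libraries. It was at 1042 TPM in the HeyC2 control and 673 TPM with TET1, and at 1231 and 648 TPM in SKOV3. Both TET1 libraries lay at nearly the same level, and both below either control. The relative log2 change was -0.48 in HeyC2, short of 1.5-fold, and -1.14 in SKOV3. The HeyC2 change was past 1.5-fold with a pseudocount of 0.1 (-0.63) and as TPM without centring (-0.63). It was also past it with upper-quartile scaling (-0.65) and centred on genes of at least 50 FPKM (-0.61). With no filter and as deposited it was above 0, at 0.51 and 1.13. With 3994 to 8547 estimated fragments per library, its counting error was 0.026 and 0.028 log2 units, which covers counting only and not the spread between cultures.

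HSPA1A (chr6:31783320-31785723) and HSPA1B (chr6:31795515-31798031) encode HSP72, the HSP70 that is induced by heat, with nearly the same protein. HSPA1A was at 355 TPM in the HeyC2 control and 190.2 TPM with TET1, and at 384 and 190.9 TPM in SKOV3. HSPA1B was at 194 and 99.3 TPM in HeyC2 and at 320 and 175 TPM in SKOV3. These were the 2 genes past 1.5-fold in HeyC2, with relative log2 changes of -0.75 for HSPA1A and -0.82 for HSPA1B, and both were past it in SKOV3 as well, at -1.22 and -1.08. In HeyC2 this held only relative to the other genes, since as deposited, scaled to GAPDH, they stood 0.86 and 0.79 higher. HSPA1A in SKOV3 was the lowest of all 10 genes there, at percentile 3.98 of all genes tested.

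Reads from HSPA1A and HSPA1B are hard to tell apart, so their separate values are uncertain. RSEM divided the shared reads between them, and the ratio of HSPA1A to HSPA1B was 1.83 without and 1.92 with TET1 in HeyC2, and 1.199 without and 1.09 with TET1 in SKOV3. The sum of both does not depend on that division. It was 549 TPM in the HeyC2 control and 289.5 TPM with TET1, and 704 and 366 TPM in SKOV3, lower with TET1 in both lines on this scale.

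HSPH1 (chr13:31709110-31736525) encodes HSP105, a member of the HSP110 family that acts as nucleotide exchange factor for HSP70. It was at 158 TPM in the HeyC2 control and 123 TPM with TET1, and at 91.4 and 47.2 TPM in SKOV3. It was the most weakly expressed of the 10 in both SKOV3 libraries and the only one that was lower in the SKOV3 control than in the HeyC2 control by over 1.5-fold. The relative log2 change was -0.22 in HeyC2 and -1.15 in SKOV3, the largest gap between the lines among the 9 genes that were lower in both.

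DNAJB1 (chr19:14625581-14671203) encodes HSP40, the J protein that stimulates the ATPase of HSP70. It was at 163 TPM in the HeyC2 control and 124 TPM with TET1, and at 209.6 TPM and 165 TPM in SKOV3. The relative log2 change was -0.25 in HeyC2 and -0.56 in SKOV3, just short of 1.5-fold with a counting error of 0.059. In SKOV3 its level relative to HSPA8 went from 0.170 to 0.255, since HSPA8 was lower by more.

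**Figure D3:**
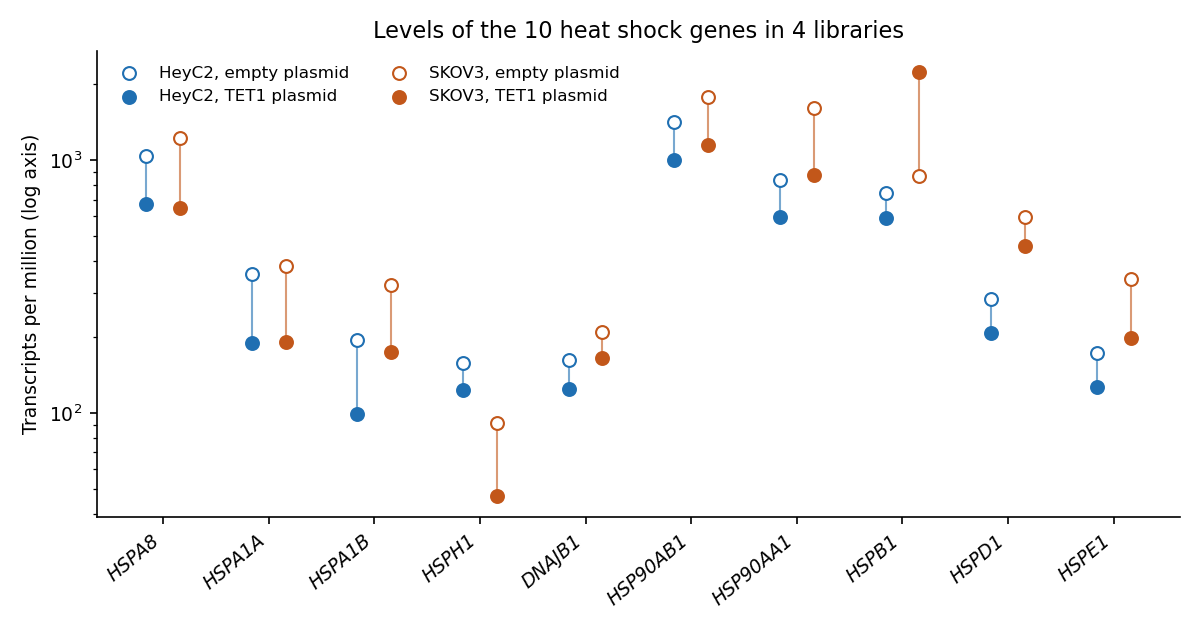
TPM (log axis) of each heat shock gene in the 4 libraries, with open circles for the empty plasmid and filled circles for the TET1 plasmid, HeyC2 in blue and SKOV3 in orange, joined by a line for each cell line. The filled circle is the lower one in 19 of 20 pairs on this scale, and the exception is HSPB1 in SKOV3, at 868 and 2240 TPM. As deposited, scaled to GAPDH, the TET1 value would be the higher one for every gene in HeyC2.

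HSP90AB1 (chr6:44213903-44221625) encodes the constitutive HSP90 beta and HSP90AA1 (chr14:102547079-102606036) the inducible HSP90 alpha. HSP90AB1 was at 1423 TPM in the HeyC2 control and 1008 TPM with TET1, and at 1786 and 1156 TPM in SKOV3. It was the most strongly expressed of the 10 in every library but SKOV3 TET1, where it came after HSPB1. HSP90AA1 was at 834 and 598 TPM in HeyC2 and at 1616 and 875 TPM in SKOV3. Neither was past 1.5-fold in HeyC2, with relative log2 changes of -0.35 for HSP90AB1 and -0.33 for HSP90AA1, and both were in SKOV3, at -0.84 and -1.10. The ratio of HSP90AA1 to HSP90AB1 was 0.586 and 0.594 in HeyC2, and it was 0.905 in the SKOV3 control and 0.757 with TET1.

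HSPB1 (chr7:75931990-75933612) encodes HSP27, an ATP-independent chaperone that holds unfolded proteins in large oligomers. It was at 744 TPM in the HeyC2 control and 592 TPM with TET1, and at 868 TPM in the SKOV3 control and 2240 TPM with TET1. It was the 142nd most highly expressed gene of the SKOV3 control and the 31st with TET1. The relative log2 change was -0.18 in HeyC2 and 1.15 in SKOV3, with counting errors of 0.055 and 0.041, and only the SKOV3 change was past 1.5-fold, at percentile 92.4 of all genes tested. The 2 changes differed by 1.33 log2 units, which could not be tested with 1 library per condition. Over all settings tried, the SKOV3 value ran from 1.09 to 1.74, while the HeyC2 value was -0.35 to 1.43 and so changed sign. The ratio of HSPB1 to HSPA8, on which the scaling has no bearing, was 0.715 in HeyC2 without TET1 and 0.879 with it, and 0.705 in SKOV3 without TET1 but 3.46 with it.

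HSPD1 (chr2:198351308-198381461) and HSPE1 (chr2:198364864-198368173) encode the mitochondrial chaperonin HSP60 and its lid HSP10, from a shared promoter region. HSPD1 was at 284 TPM in the HeyC2 control and 208 TPM with TET1, and at 595 and 459.6 TPM in SKOV3. HSPE1 was at 173 and 127 TPM in HeyC2 and at 339.9 TPM and 198 TPM in SKOV3. In HeyC2 both had nearly the same relative log2 change, -0.30 for HSPD1 and -0.31 for HSPE1, and the ratio of HSPD1 to HSPE1 was 1.64 in both libraries. In SKOV3 the change was -0.59 for HSPD1, just past 1.5-fold, and -0.99 for HSPE1, and the ratio was 1.75 in the control and 2.32 with TET1. As deposited, scaled to GAPDH, the HSPD1 change in SKOV3 was 0.00. HSPE1 rested on the fewest fragments, about 248, 157, 454 and 235, with counting errors of 0.147 and 0.116. Fragments of the read-through gene HSPE1-MOB4 could overlap HSPE1, but its FPKM was 0.20 or lower in all 4 libraries.

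The levels of the 10 genes spanned 158 to 1423 TPM in the HeyC2 control and 91.4 to 1786 TPM in the SKOV3 control. Summed over the 10 genes, the level was 5370 TPM in the HeyC2 control and 3743 TPM with TET1, and 7440 and 6154 TPM in SKOV3. Without HSPB1 the SKOV3 sums were 6572 and 3914 TPM. HSP90AB1, HSPA8, HSP90AA1 and HSPB1 were the 4 highest in all 4 libraries, and in SKOV3 TET1 HSPB1 moved from the fourth place to the first.

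The empty-plasmid controls of the 2 lines were also compared, although the tables of the lines were quantified separately. On the TPM scale, centred on the all-gene median, the median difference of SKOV3 from HeyC2 was 0.03 log2 units (0.34 without centring). By the threshold of 1.5-fold, 3 genes were higher in SKOV3, HSPD1 at 0.75, HSPE1 at 0.66 and HSP90AA1 at 0.64, and HSPH1 was lower, at -1.10. Among all 13613 genes tested, 30.4% were lower and 30.2% higher. HSPB1 differed by -0.09 between the controls.

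**Figure D4:**
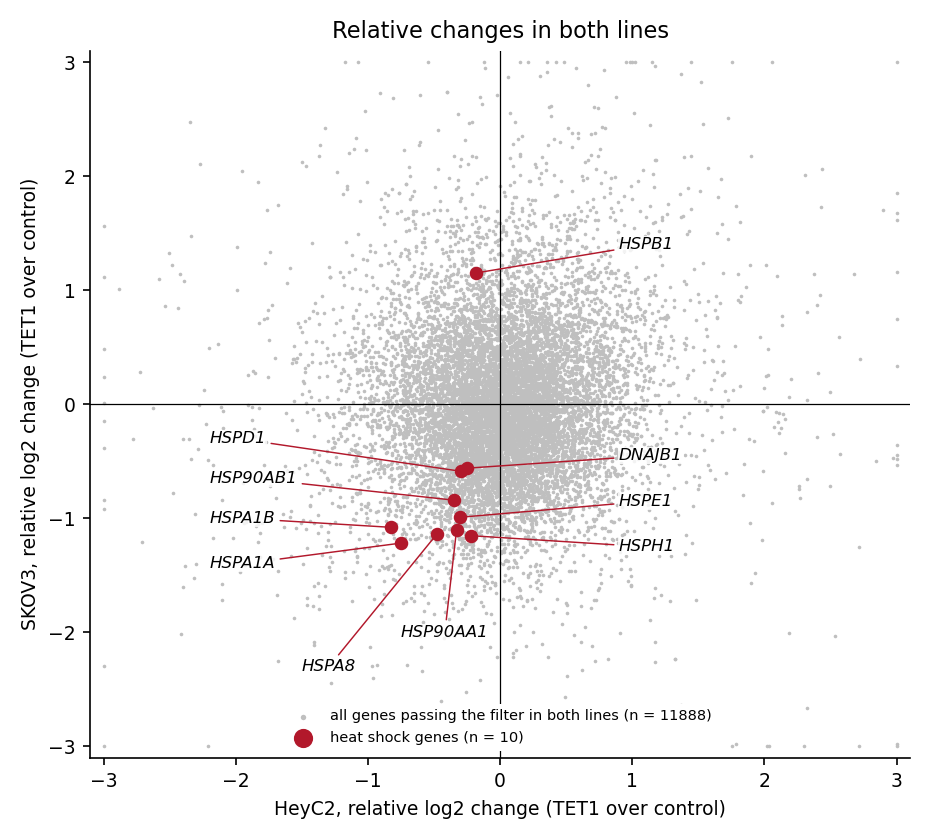
Relative log2 change in HeyC2 (x axis) and SKOV3 (y axis) of all 11888 genes above the low-value filter in both lines (grey, values beyond 3 drawn at 3) and of the 10 heat shock genes (red, named). Of the heat shock genes, 9 lie below and left of 0 on both axes and HSPB1 lies above the horizontal line. As deposited, scaled to GAPDH, all 10 would lie to the right of 0.

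Other genes of the chaperone network were read from 9 lists, 90 genes in all, to place the 10 genes beside their partners. In HeyC2, 81 passed the filter, of which 11 (13.6%) were lower and 3 (3.70%) higher by 1.5-fold, with a median relative log2 change of -0.10. The share of lower genes was near the 12.9% of all genes but above the 4.17% of genes with at least 50 FPKM. In SKOV3, 82 passed, of which 24 (29.3%) were lower and 4 (4.88%) higher, with a median of -0.34. The share of lower genes was above the 17.9% of all genes but near the 27.3% of genes with at least 50 FPKM, and nothing particular to the lists is read from these counts. These medians lie between 0 and those of the 10 heat shock genes in both lines. Counts for single lists below are to be read beside the shares of all genes and of strongly expressed genes given above. In HeyC2 the pseudocount pulls weakly expressed genes down, so lower calls among them are uncertain. The genes named below are the 2 highest and 2 lowest of each list over both lines, with their relative log2 change in HeyC2 first and in SKOV3 second. On the deposited scale each of these changes is 1.61 higher in HeyC2 and 0.59 higher in SKOV3, so their directions hold only relative to the median gene.

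The heat shock factor genes were not lower as a list, with medians of 0.52 in HeyC2 and 0.11 in SKOV3. HSF1, the main activator of the heat shock response, was at 181 TPM in the HeyC2 control and 249 TPM with TET1, and at 130.4 and 163 TPM in SKOV3, with relative log2 changes of 0.60 in HeyC2, past 1.5-fold, and 0.10 in SKOV3. HSF4, a factor best known from the lens, was past 1.5-fold in both lines, at 0.94 in HeyC2 and 0.79 in SKOV3, from a low level of 5.47 and 5.63 TPM in the controls. HSF2 had a change of 0.52 in HeyC2 and of -0.31 in SKOV3, and HSF2BP, named for binding HSF2, stood at -0.62 and 0.77. Of the 5 genes of this list, HeyC2 had 2 past the threshold upward and 1 downward, and SKOV3 had 2 upward and 0 downward. The downward one in HeyC2 was HSF2BP, at 2.425 TPM in the control and 2.017 TPM with TET1. At such a level the pseudocount pulls the HeyC2 change down, so this call is uncertain. RNA levels do not show the activity of HSF1, which is set largely after translation.

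Of 9 other HSP70 and HSP110 genes, HeyC2 had 6 and SKOV3 had 7 above the filter, of which 2 and 1 were lower by 1.5-fold and none higher. HSPA12A, a distant HSP70 relative, had a change of -1.32 in HeyC2 and of -0.08 in SKOV3, and HSPA1L, the neighbour of HSPA1A, stood at -0.92 and 0.21 from 1.53 TPM or less in the controls. In HeyC2 HSPA1L was at 1.11 TPM with TET1, and the pseudocount pulled its change down. HSPA13 was at 0.09 and 0.33 and HSPA14 at 0.25 and -0.20. Of 16 further cytosolic J protein genes, 1 was lower in HeyC2, and 2 were lower and 2 higher in SKOV3. DNAJB4 had a change of -0.95 in HeyC2 and of -0.15 in SKOV3, and DNAJC2 had changes of -0.40 and -0.34, while DNAJB5 was at -0.24 and 1.06 and DNAJC13 at 0.32 and 0.12.

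Factors that work with HSP70 and HSP90 form the next lists. Of 9 BAG, exchange and release factors, 1 was lower in HeyC2 (median -0.01) and 3 in SKOV3 (median -0.47). BAG3, a partner of HSP70 in selective autophagy and itself a known HSF1 target, was lower past 1.5-fold in both lines, at -0.67 and -0.74, from 143 to 81.0 TPM in HeyC2 and from 83.7 to 58.1 TPM in SKOV3. HSPBP1 was at -0.40 and -0.68, STUB1, the ubiquitin ligase CHIP, at 0.43 and -0.20, and ST13 at -0.11 and 0.34. Of 14 HSP90 cochaperones, 2 were lower in HeyC2 and 7 in SKOV3, none was higher, and the medians were -0.17 and -0.62. Lower genes made up 12.9% of all genes in HeyC2 and 4.17% of those with at least 50 FPKM. In SKOV3 these shares were 17.9% and 27.3%. NUDC was at -0.19 and -1.08 and AHSA1, which activates the HSP90 ATPase, at -0.37 and -0.88, against 0.18 and 0.03 for UNC45A and -0.29 and 0.24 for CDC37L1.

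The other small heat shock protein genes were in good part below the filter. Of 9, HeyC2 had 3 and SKOV3 had 4 above the filter, and 2 were lower in each line with none higher. HSPB8, a partner of BAG3, was at -1.46 in HeyC2 and -1.76 in SKOV3, from 14.8 to 4.92 TPM and from 8.95 to 2.15 TPM. CRYAB, alpha B-crystallin, was at -0.71 and -1.73, and in SKOV3 its level was 28.1 TPM in the control and 8.94 TPM with TET1. HSPB11 was at -0.18 and -0.55. HSPB9, named after its values were seen as the remaining gene above the filter in SKOV3, was on the same side of the all-gene median as HSPB1, at 0.42, with 1.33 TPM in the control and 3.70 TPM with TET1. In HeyC2 it was at 0, and HSPB1 and HSPB11 both had a change of -0.18.

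Of the 8 subunits of TRiC, the cytosolic chaperonin that folds actin and tubulin, none was past 1.5-fold in HeyC2 and 3 were lower in SKOV3. TCP1 had a change of -0.10 in HeyC2 and of -1.37 in SKOV3, and CCT5 had changes of -0.32 and -0.99, while CCT2 was at -0.04 and 0.12 and CCT4 at -0.19 and 0.00. All 8 lay below the all-gene median in HeyC2 and 6 in SKOV3, against 37.25% and 67.76% of genes with at least 50 FPKM. Prefoldin, which hands clients to TRiC, had 0 of 6 subunit genes past the threshold in HeyC2 and 2 lower in SKOV3. PFDN5 was at 0.15 and 0.45, PFDN4 at 0.41 and -0.31, PFDN6 at -0.08 and -0.66, and PFDN2 at -0.31 and -0.24. Of 14 mitochondrial chaperone and protease genes, the partners of HSPD1 and HSPE1, 2 were lower and 1 higher in HeyC2 and 4 were lower in SKOV3. HSPA9, the mitochondrial HSP70, was at -0.36 and -0.67, LONP1 at -1.01 and -0.11, DNAJC19 at 0.33 and 0.23, and SPG7 at 0.42 and -0.22.

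**Figure D5:**
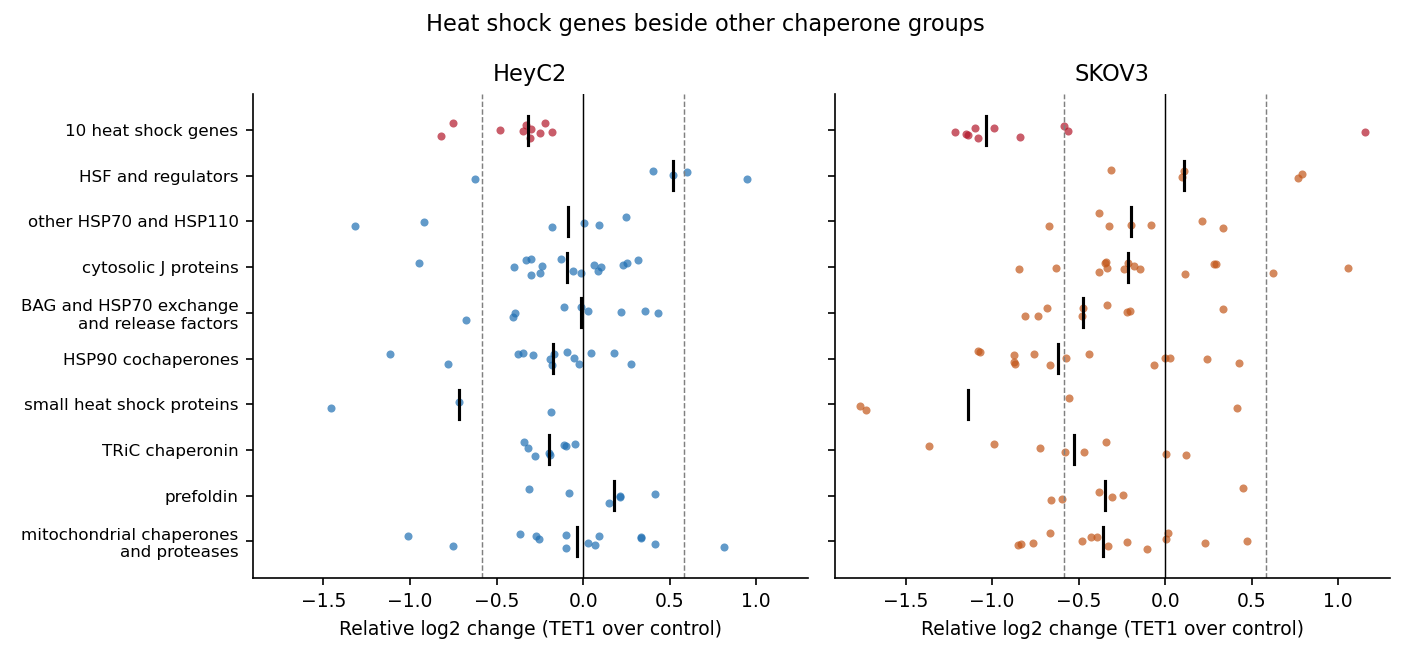
Relative log2 change of the 10 heat shock genes (red) and of the genes of each chaperone list above the filter, in HeyC2 (left) and SKOV3 (right), with a black bar at each median and dashed lines at 1.5-fold. The medians of the 10 heat shock genes are -0.32 and -1.03. As deposited, scaled to GAPDH, every HeyC2 point would move right by 1.61 and every SKOV3 point by 0.59.

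The 5 genes whose levels over the 4 libraries were closest to the median profile of the heat shock genes were searched among 1863 genes with at least 50 FPKM in both lines, by the Euclidean distance of centred log2(TPM + 1) values. They were PSMC1, a proteasome ATPase subunit, at a distance of 0.057, ARF6 at 0.101, TPM3 at 0.103, C12orf75 at 0.136 and AHSA1 at 0.137. PSMC1 was at 258 and 175 TPM in HeyC2 and 353 and 234 TPM in SKOV3. Among the heat shock genes themselves the distance ran from 0.230 for HSP90AB1 to 1.51 for HSPB1 and 1.58 for HSPH1. With 4 libraries, a short distance describes these samples only.

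Other features moved with the TET1 libraries beside the heat shock genes. Of the 10 epithelial and ovarian cancer markers, 3 were past 1.5-fold upward and none downward in HeyC2, while SKOV3 had 2 upward and 3 downward. In HeyC2 the keratin gene KRT7 was at 600.3 TPM in the control and 2223 TPM with TET1, a relative log2 change of 2.04. In SKOV3 CDH1, at 4.74 and 13.8 TPM, and PAX8, at 158 and 288 TPM, were the 2 higher ones. There KRT7 was at 3251 TPM in the control and 48.2 TPM with TET1 and KRT19 at 539.5 TPM and 1.01 TPM, while KRT8 and KRT18 were not lower. Summed over 6 fibroblast markers the SKOV3 level was 2.35 TPM in the control and 77.7 TPM with TET1, of which COL1A1 was 60.7 TPM and DCN was at 0. In HeyC2 the 4 endothelial markers summed to 40.6 TPM in the control and 189 TPM with TET1, nearly all from CDH5, with PECAM1 at 0.187 and 0.0611 TPM. The 5 leukocyte markers summed to 3.13 to 6.27 TPM in the 4 libraries, with CD3E at 0. Of 6 early response genes, which also answer to handling of cells, 5 were higher in HeyC2, with FOS at 25.6 TPM in the control and 273 TPM with TET1. In SKOV3, 2 of the 6 were lower and 1 higher, with DUSP1 at 1007 and 146.5 TPM. The part of these differences in the heat shock gene values was not tested.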

How the data were processed

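RNA-seq of 4 libraries was analysed, 1 per condition and cell line. The deposited values are FPKM, which the authors obtained with Bowtie2 2.2.6 (aligner, hg19) and RSEM 1.2.17 from paired reads of TruSeq libraries, per the labels. The annotation used by the authors is not given in the sources used here. In the TET1 columns the FPKM were multiplied by a constant that sets GAPDH to its control value, which was found from the spacing of the values below 40 FPKM.

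Changes were computed as log2 of TET1 over control FPKM with a pseudocount of 1, minus the median over genes with a mean of at least 1 FPKM in the line. The pseudocount pulls the relative changes of low genes toward the value of a gene at 0 in both libraries. That value is -1.61 in HeyC2 and -0.59 in SKOV3. Genes past 1.5-fold were counted. No test was made, since each condition had 1 library in each line. Counting error was estimated from fragments, taken as FPKM times length times depth, with the canonical transcript lengths of GENCODE release 44 on GRCh37. Counting errors hold for counting only. Promoters came from the RefSeq table. The named genes are the 10 members, the 2 highest and 2 lowest of each list over both lines, the 5 nearest profiles, TET1 and GAPDH; other marker genes were named after their values were seen. The members and lists were chosen with earlier results of these data known. The calculation was tested on drawn tables with planted changes. Python 3.11.15, NumPy 2.4.6, pandas 2.3.3 and matplotlib 3.10.9 were used.

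The alternatives tried were another pseudocount, no filter or a stricter one, TPM without centring, upper-quartile scaling, centring on strongly expressed genes, the values as deposited, other fold thresholds, HSPA1A and HSPA1B as 1 gene, and the set without HSPD1 and HSPE1.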

Additional observations from a re-analysis of the deposited data

Results flagged for a closer look

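HSPB1 had relative log2 changes of -0.18 in HeyC2 and 1.15 in SKOV3, and the change in SKOV3 minus that in HeyC2 was 1.33. It is listed because its only library pair moved one way in HeyC2 and the other way in SKOV3, and the difference was not tested. Of the chaperone list genes above the filter in both lines, those with opposite signs, at least 1 change past 1.5-fold and a gap of at least 1 log2 unit are listed as well, in the order HeyC2 and SKOV3, some of them named only after their values were seen. For HSF2BP the changes were -0.62 and 0.77, a gap of 1.39, at 2.02 to 9.35 TPM. For HSPA1L they were -0.92 and 0.21, a gap of 1.13, at 1.11 to 2.92 TPM. For DNAJB5 they were -0.24 and 1.06, a gap of 1.29, at 7.99 to 22.7 TPM. For FKBP4 they were -1.11 and 0.43, a gap of 1.54, at 24.3 to 84.1 TPM. For CLPB they were 0.81 and -0.85, a gap of -1.67, at 11.5 to 29.4 TPM. For HSCB they were -0.75 and 0.47, a gap of 1.23, at 8.26 to 36.3 TPM. For DNAJC9 they were 0.23 and -0.85, a gap of -1.08, for CHORDC1 0.28 and -0.76, a gap of -1.04, and for BAG1 0.22 and -0.81, a gap of -1.03. These differences were not tested either, and counting error is largest at the lowest levels. The HeyC2 changes of HSF2BP and HSPA1L were also pulled down by the pseudocount, which widens their gaps. As deposited, scaled to GAPDH, HSPB1 was higher with TET1 in both lines, at 1.43 and 1.74.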

How the results depend on the processing

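The HeyC2 median of -0.32 turned above 0 under 2 alternatives. It was 0.67 when no low genes were filtered, because genes at 0 in both libraries then lower the all-gene median, and 1.29 as deposited, scaled to GAPDH. It was -0.47 with a pseudocount of 0.1, -0.46 as TPM without centring, -0.48 with upper-quartile scaling and -0.45 centred on genes of at least 50 FPKM. The SKOV3 median of -1.03 stayed below 0 throughout and was -0.53 with no filter, -0.82 as TPM, -0.77 centred on genes of at least 50 FPKM and -0.45 as deposited. The median of the control comparison, 0.03, was 0.34 as a TPM ratio without centring. In HeyC2 the count of higher genes, 0, was 7 with no filter and 10 as deposited, and the count of lower genes, 2, was 0 under both and at 2-fold, 7 at 1.2-fold and 1 with HSPA1A and HSPA1B summed. That lower count was 3, with HSPA8 added, under a pseudocount of 0.1 and as TPM without centring. It was also 3 with upper-quartile scaling and centred on genes of at least 50 FPKM. In SKOV3 the count of lower genes, 8, was 4 with no filter, 1 as deposited and 5 at 2-fold. That SKOV3 count was 6 centred on genes of at least 50 FPKM. It was 7 as TPM without centring, with upper-quartile scaling and with the stricter filter. With a pseudocount of 0.1 and at 1.2-fold it was 9. With no filter and as deposited, all 10 HeyC2 changes turned from below to above 0, among them those past 1.5-fold, HSPA1A at 0.24 and 0.86 and HSPA1B at 0.17 and 0.79. In SKOV3, HSPD1 at 0.002 and DNAJB1 at 0.03 turned as deposited.

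No paired analysis was possible because each group had 1 library within a cell line and the labels hold no replicate numbers, and leaving out a replicate would leave no library. A fit over both lines with the line as a block would leave 1 residual degree of freedom and was not run. Depth limits the low genes most: TET1 rested on about 14 fragments in the HeyC2 control, and HSPE1 on 157 in HeyC2 TET1. Whether the relative or the deposited scale gives the direction per cell was not tested.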
